A study of Mus musculus with 6 samples.

Results

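Transcripts of 42 genes that make, sense, anchor and degrade cyclic AMP (cAMP) were followed in mouse corneal keratocytes, the resident cells of the corneal stroma, with and without ablation of Ptch1. The genes were selected on names that fit the cAMP and protein kinase A (PKA) pathway and on earlier results from these same samples, so their differences between the groups are given as a description. All 42 were among the 17606 genes in the table, as 9 adenylyl cyclases, 4 G protein alpha subunits, 6 PKA subunits, 3 PKA inhibitor peptides, 14 phosphodiesterases, 2 anchoring proteins, 2 CREB family factors and 2 Epac exchange factors. Bulk RNA was sequenced from keratocytes sorted by flow cytometry from the corneas of mice listed as 10 weeks old. Both groups had received 3 doses of tamoxifen, and an interval of 1 month is listed for all samples. The paper states that keratocytes were isolated 1 month after tamoxifen. The Ptch1-ablated group (n = 3) carried Prrx1-CreERT, a tamoxifen-inducible recombinase driven by a mesenchymal promoter, together with floxed Ptch1. The Control group (n = 3) is labelled only as control mice, and its alleles are not given. Prrx1 marks stromal cells in general, so the promoter does not limit recombination to keratocytes. The labels number 3 samples a group without naming animals, so p-values measure the spread between these samples.

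Cyclic AMP is made by adenylyl cyclases at the membrane, which Gs alpha stimulates and Gi alpha inhibits. It releases the catalytic subunits of PKA from their regulatory subunits, and phosphodiesterases break it down. Anchoring proteins hold PKA near its substrates, inhibitor peptides (PKI) block free catalytic subunits, CREB carries the signal to genes, and Epac proteins answer to cAMP without PKA. In Hedgehog signaling PKA is a brake. It phosphorylates Gli proteins and favours their processing to repressors, while Ptch1 is the receptor whose loss releases Smoothened and the Gli activators.

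Library totals ranged from 20258414 to 24788039 estimated counts in Control and from 21729844 to 23530490 in Ptch1-ablated samples. At these depths 3 counts correspond to 0.121 to 0.158 counts for every 1000000 counts of the library, scaled by TMM (CPM), and floors of this kind cover counting error only. The target gene was checked first. Ptch1 stood at 7.89, 5.47 and 16.2 CPM in Control and at 185, 221 and 251 CPM in Ptch1-ablated samples, a log2 fold change of 4.47 ± 0.35 (SE), and a gene total does not resolve deleted exons. The Hedgehog target genes Gli1 and Hhip were higher by 7.15 ± 0.54 and 9.97 ± 0.27 on the log2 scale. The label of the cells was compared with 8 keratocyte markers, whose summed TPM (transcripts in every 1000000, corrected for length) ranged from 102928 to 118712 in Control and from 79924 to 95958 in Ptch1-ablated samples. Of 7 that could be tested, 5 fell and none rose, and Ptgds was at 0 counts in some Control samples. Markers of other cell types moved as well. Marker counts stand beside 4.68% of all genes tested that were higher and 3.80% that were lower past an adjusted p of 0.05. On a TPM scale the median log2 fold change of all genes was 0.19 to 0.22, so these sums are to be read against that shift. Summed TPM ranged from 386 to 476 against 617 to 650.0 for vascular endothelium (4 of 8 rose), from 481 to 546 against 925 to 986 for mural cells (4 of 9 rose), from 4521 to 4823 against 6482 to 7186 for leukocytes (2 of 8 rose, Ptprc not among them) and from 135 to 154 against 205 to 229 for Schwann cells (2 of 7 rose). Summed TPM of the corneal epithelial list ranged from 50.9 to 89.7 in Control and from 3.52 to 8.99 in Ptch1-ablated samples (3 of 6 tested fell, while Krt12, at 0 counts in Control, rose), where Krt5, Krt14, Krt15, Cdh1, Trp63 and Dsp each reached 0 counts in at least 1 sample. Melanocyte markers summed to at most 12.8 TPM in any sample, and none of 3 corneal endothelial markers passed edgeR's test (Slc4a11 did in DESeq2 and limma, and at an unadjusted p under 0.05). The part of these cell types in the results was not tested, and in bulk RNA fewer cells of a type and less RNA per cell cannot be told apart.

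Promoter windows of the genes were read from RefSeq (GRCm38.p6), from 250 bases before to 50 bases after each transcription start. A window was found for 33 of the 42 genes, 76 windows in all. The cAMP response element (CRE), the site that CREB proteins bind, was searched as TGACGTCA and as its short form TGACG, which lies within it, and Gli binding was searched as GACCACCCA and as its core CCACCCA, on both strands. The full CRE was in 1.79% of 32851 windows genome-wide and in 2 windows of these genes, which are overlapping windows of Prkar1a that hold the same single site. The short form was in 20.8% of all windows and in 27.6% of the 76. Of the 76 windows 15 overlap another window of the same gene, so the 26 matches of the short form in them are 22 distinct sites. The longer Gli sequence was in 0.253% of all windows and in none of the 76, and its core was in 9.30% of all windows and in 5.26% of the 76. Genes of the set had 2.30 windows each against 1.22 over all genes, so shares per window are compared. Windows of 3 genes are shown here, all on the plus strand and with CRE letters in capitals: those of Adcy7, the gene with the largest change, of Pde4b, the phosphodiesterase with the highest control level, and of Prkar1a, the regulatory subunit with the full element. They lie at chr8:88282742-88283041, chr4:102421305-102421604 and chr11:109650699-109650998.
Adcy7: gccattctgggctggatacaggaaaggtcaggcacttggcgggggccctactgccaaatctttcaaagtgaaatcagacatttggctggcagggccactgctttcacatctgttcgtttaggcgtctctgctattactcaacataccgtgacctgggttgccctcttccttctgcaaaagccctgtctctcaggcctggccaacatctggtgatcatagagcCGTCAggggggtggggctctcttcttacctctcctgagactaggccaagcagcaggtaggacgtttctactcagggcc
Pde4b: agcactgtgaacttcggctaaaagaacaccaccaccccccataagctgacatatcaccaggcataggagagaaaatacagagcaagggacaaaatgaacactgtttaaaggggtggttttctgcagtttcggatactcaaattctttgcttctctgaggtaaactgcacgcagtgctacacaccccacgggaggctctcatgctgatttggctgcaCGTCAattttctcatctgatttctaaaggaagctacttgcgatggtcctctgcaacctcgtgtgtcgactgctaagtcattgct
Prkar1a: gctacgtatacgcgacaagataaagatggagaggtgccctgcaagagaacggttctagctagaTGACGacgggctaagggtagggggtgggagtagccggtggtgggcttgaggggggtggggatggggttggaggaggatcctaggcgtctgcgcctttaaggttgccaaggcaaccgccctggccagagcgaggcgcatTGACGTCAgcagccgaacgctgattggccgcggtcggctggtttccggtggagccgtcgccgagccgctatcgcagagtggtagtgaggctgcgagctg
In the Adcy7 window the short CRE began 28 bases before the start, on the minus strand, and the other 2 Adcy7 windows held neither form. In that of Pde4b it began 34 bases before the start, also on the minus strand, and the other windows of Pde4b held neither form. The full CRE of Prkar1a began 49 bases before the start of the window shown and at base 39 after the start of the other. A match is a description of letters, and binding was not measured.

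In Control keratocytes the pathway was expressed at modest levels with a few abundant members. Levels between genes are compared as TPM, which divides by transcript length. The type I regulatory subunit Prkar1a stood highest at 257 ± 21.0 TPM (SD, n = 3), followed by the stimulatory alpha subunit Gnas at 211 ± 23.1, and the Control ranges of this pair did not overlap. Below them Adcy7 (86.6 ± 13.1), Gnai3 (85.8 ± 15.5), Pde4b (81.4 ± 12.5), Pkig (75.9 ± 11.9), Rapgef3 (72.9 ± 6.08) and Gnai2 (72.8 ± 18.3) had overlapping ranges and no order beyond their spread. Mean control TPM was 100 or more for 2 genes, from 10 to under 100 for 21, from 1 to under 10 for 14 and under 1 for 5. Adcy8, a calcium-stimulated cyclase of neurons, had 0 counts in 5 of 6 samples and 2 counts in the other, under the floor of 3, and was the only member left out of the test. Over the 41 tested genes the median coefficient of variation in CPM was 17.8% in Control and 20.4% in Ptch1-ablated samples.

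Between the groups 8 of the 41 genes passed an adjusted p of 0.05 in edgeR's quasi-likelihood test (two-sided, Benjamini-Hochberg over 13888 genes), 5 of them higher and 3 lower after Ptch1 ablation. Over all genes tested 8.48% passed, 4.68% higher and 3.80% lower. With a fold of at least 2 as well, Adcy7, Akap12, Adcy1 and Adcy5 were called higher and Adcy2 lower, beside 5.49% of all genes, 3.36% higher and 2.13% lower. The CPM values of the groups did not overlap for 19 genes of the set, beside 27.4% of all genes. Because the set was chosen with this contrast known, nothing is read from these shares. The median log2 fold change was 0.15 over the set and 0.00 over all genes tested. Without the TMM scaling factors the median of all genes shifted to 0.17, and on a TPM scale to between 0.19 and 0.22, so a TPM sum that is slightly higher in Ptch1-ablated samples is to be read against that shift. The plot of all tested members shows that the 5 called genes were 4 cyclases and an anchoring protein.

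**Figure D1:**
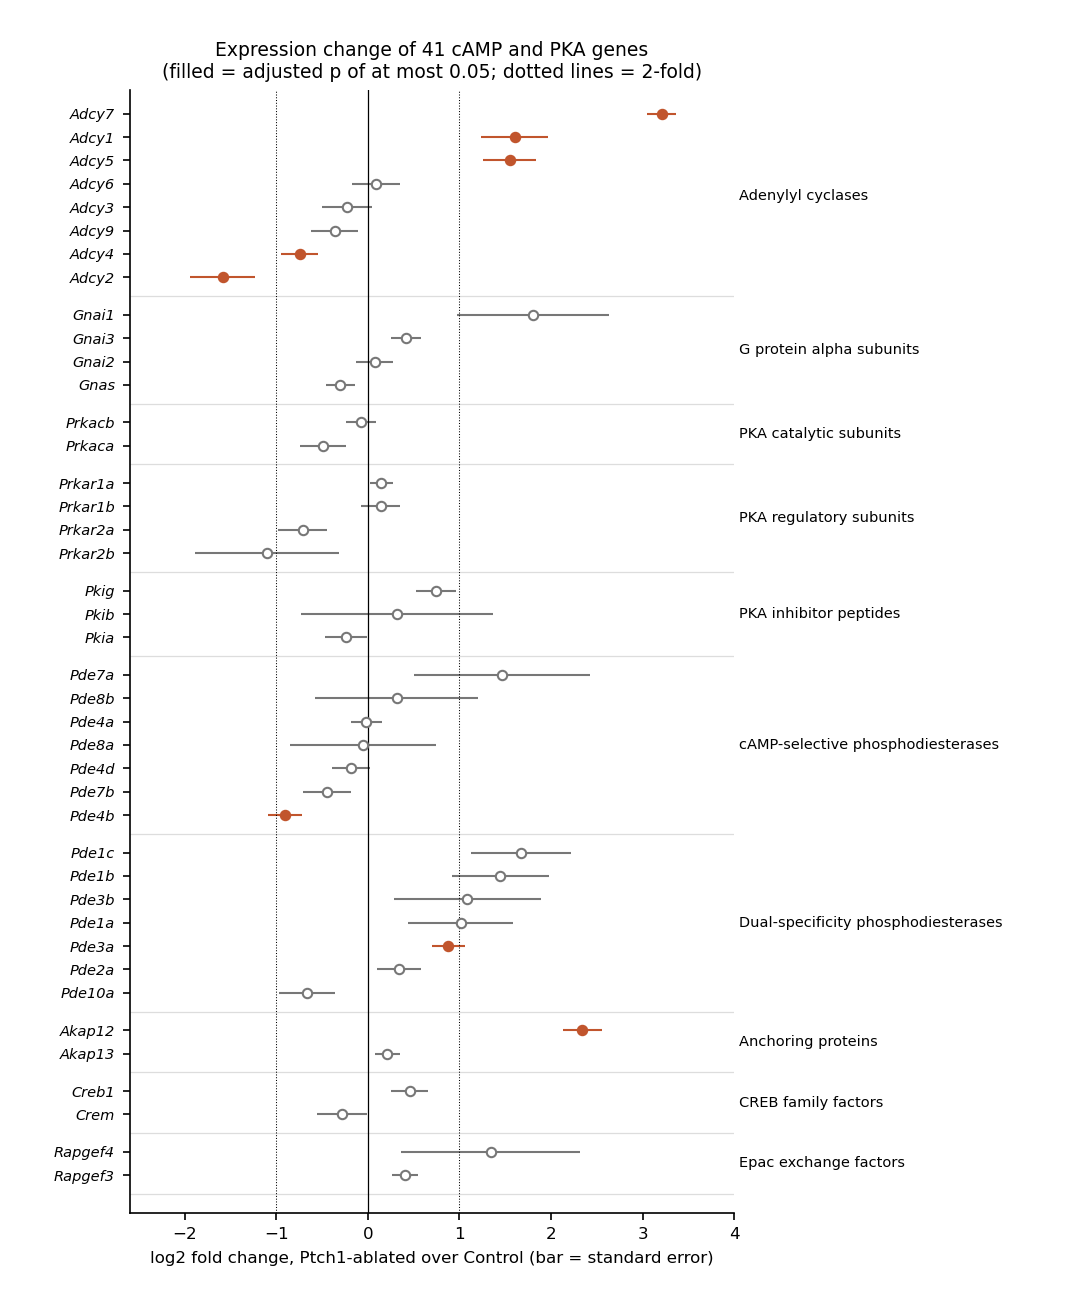
Log2 fold change (Ptch1-ablated over Control, bars are standard errors) of the 41 tested cAMP and PKA genes, grouped by role, with filled points for an adjusted p of at most 0.05 and dotted lines at a 2-fold change. Adcy7 at 3.21 and Akap12 at 2.34 lie farthest to the right, Adcy2 at -1.59 lies farthest to the left among the filled points, and no PKA subunit, PKI or G alpha gene is filled.

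The adenylyl cyclases, which synthesize cAMP, changed in both directions. Of 8 tested, Adcy7, Adcy1 and Adcy5 rose, Adcy2 and Adcy4 fell, and Adcy3, Adcy6 and Adcy9 did not pass. Over all genes tested 4.68% were higher and 3.80% lower past the same adjusted p. The set was chosen with this contrast known, so nothing is read from these counts. Adcy7, a cyclase stimulated by G protein beta-gamma subunits together with Gs, stood at 178, 227 and 226 CPM in Control and at 2185, 2038 and 1609 CPM in Ptch1-ablated samples. Every Ptch1-ablated sample was far above every Control sample. Its means of 211 ± 28.0 and 1944 ± 299 CPM (SD, n = 3) gave a 9.23-fold rise, or 3.21 ± 0.16 on the log2 scale with its SE (edgeR adjusted p = 2.26e-07). Leaving out any 1 sample kept this change between 3.10 and 3.32. By size the rise was number 114 among the 650 genes that rose, and by mean TPM the gene moved from place 1754 to place 118 of all genes. The part of the other cell types given above in this rise, and in those of Akap12 and Pde3a below, was not tested.

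The 2 other cyclases of the beta-gamma-stimulated family went down. Adcy2 was at 17.2, 17.0 and 16.2 CPM in Control and at 5.75, 7.35 and 3.66 CPM in Ptch1-ablated samples. The Control values were close together and the groups were far apart, with a log2 fold change of -1.59 ± 0.36 (edgeR adjusted p = 0.0159). Without Control replicate 2, Ptch1-ablated replicate 1 or Ptch1-ablated replicate 3 the adjusted p was 0.0558, 0.0557 or 0.0646, and in limma on log2(TPM + 0.1) it was 0.0635. Adcy4, a cyclase known from vascular endothelium, was at 61.3, 102 and 90.1 CPM in Control and at 51.9, 48.1 and 51.1 CPM in Ptch1-ablated samples. Its lowest Control value lay only a little above the Ptch1-ablated ones, with a log2 fold change of -0.74 ± 0.21 (edgeR adjusted p = 0.0452). It no longer passed without Control replicate 2 or 3 or any 1 of the Ptch1-ablated samples, where the adjusted p ranged from 0.11 to 0.196, nor under library totals alone (0.0998) or in the limma fits (0.155 and 0.163). No other of the 8 genes that passed missed the threshold in so many alternatives. Of the vascular endothelial markers, 4 of 8 rose in the same samples, as given above. The part of such cells in the fall of Adcy4 was not tested.

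Adcy5, a cyclase that calcium inhibits, was at 29.8, 17.2 and 17.6 CPM in Control and at 60.4, 83.3 and 45.3 CPM in Ptch1-ablated samples. All 3 Ptch1-ablated values exceeded the highest Control value, with a log2 fold change of 1.55 ± 0.29 (edgeR adjusted p = 0.00514). Adcy1, a cyclase that calcium and calmodulin stimulate, was at 27.5, 17.2 and 9.98 CPM in Control and at 40.4, 78.0 and 47.6 CPM in Ptch1-ablated samples. The groups did not overlap but each spread widely, and the log2 fold change was 1.60 ± 0.36 (edgeR adjusted p = 0.0158). Without Control replicate 2 or Ptch1-ablated replicate 2 the adjusted p was 0.0637 or 0.0831. The 3 cyclases that did not pass, Adcy3, Adcy6 and Adcy9, had log2 fold changes between -0.36 and 0.09 with standard errors of 0.25 to 0.27.

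These changes altered the make-up of cyclase transcripts. As a share of summed cyclase TPM, Adcy7 held 42.3%, 45.5% and 46.8% in Control and 90.5%, 87.8% and 88.8% in Ptch1-ablated samples. Adcy4, second in Control at 28.5% ± 3.74 (SD, n = 3), held 3.72% ± 0.528 in Ptch1-ablated samples. Shares of the other cyclases fall by construction where Adcy7 raises the sum. In TPM, Adcy4 itself went from 55.2 ± 12.1 in Control to 38.5 ± 2.28 in Ptch1-ablated samples. Summed cyclase TPM was 192 ± 20.02 in Control and 1050.4 ± 191 after ablation, and without Adcy7 it was 106 ± 7.10 and 115 ± 22.7. The difference in the sum was therefore carried by Adcy7, while the other cyclases together differed by less than the spread between the Ptch1-ablated samples. Adcy2 and Adcy4 together went from 63.6 ± 12.1 to 41.7 ± 3.49 TPM, and the calcium-inhibited pair Adcy5 and Adcy6 from 19.8 ± 4.03 to 44.0 ± 15.5 TPM. Summed TPM of the whole set was 1414 ± 17.8 in Control and 2576 ± 248 after ablation. Without Adcy7 it was 1327 ± 30.1 and 1640 ± 98.9, so most of that difference too was carried by Adcy7. The remainder is to be read against the shift of all genes on a TPM scale given above.

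**Figure D2:**
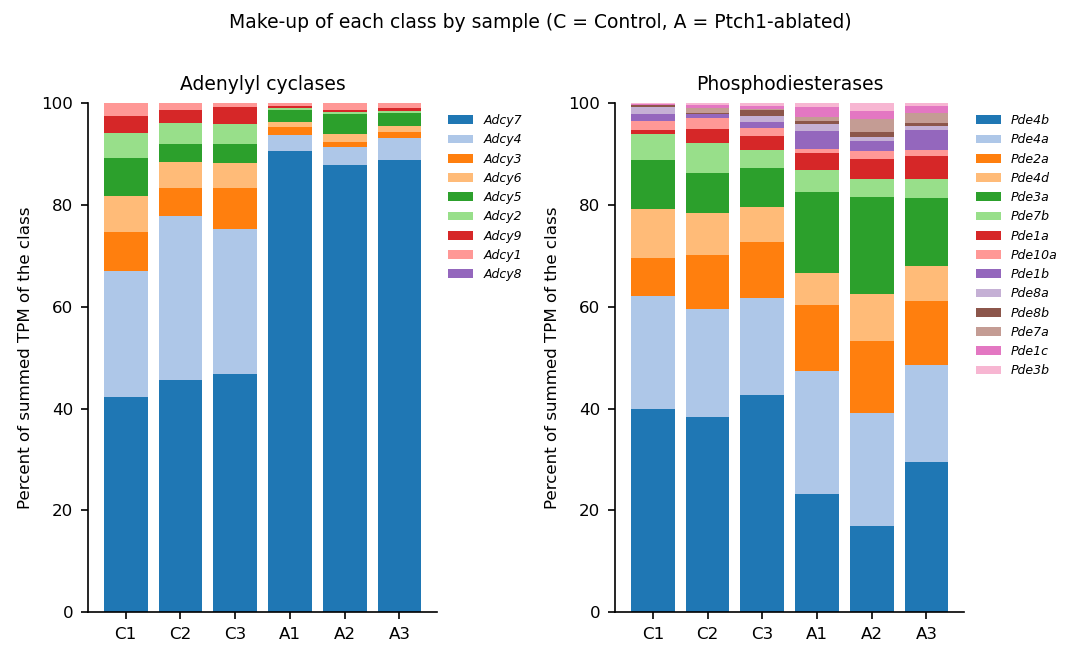
Percent of summed TPM held by each adenylyl cyclase (left) and each phosphodiesterase (right) in every sample, C1 to C3 for Control and A1 to A3 for Ptch1-ablated. Adcy7 fills 42.3% to 46.8% of the Control bars and 87.8% to 90.5% of the Ptch1-ablated bars, and Pde4b shrinks from 38.4% to 42.6% down to 16.9% to 29.5%.

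The G protein alpha subunits, which set cyclase activity, did not pass edgeR's test, although 1 of the 4, Gnai3, had an unadjusted p under 0.05. Gnas, which encodes the stimulatory Gs alpha, was at 169.7, 151 and 129.7 CPM in Control and at 116, 136 and 114 CPM in Ptch1-ablated samples. Its groups overlapped, with a log2 fold change of -0.30 ± 0.16 (edgeR adjusted p = 0.325). The inhibitory subunits Gnai1, Gnai2 and Gnai3 had log2 fold changes of 1.80 ± 0.83, 0.07 ± 0.20 and 0.42 ± 0.16. Gnai3 passed only where library totals alone were used (adjusted p = 0.0331) or in limma on TPM. Gnas TPM per summed inhibitory TPM was 1.42, 1.30 and 1.25 in Control and 0.833, 0.998 and 0.797 in Ptch1-ablated samples, ranges that did not overlap. The ratio was not tested, and over all genes tested the CPM values of 27.4% did not overlap between the groups either. The Gnas locus also has a protein-coding gene on its other strand in GENCODE vM21, and it holds several overlapping transcripts that 1 gene value cannot separate.

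PKA itself, the kinase that cAMP activates, showed no subunit past the threshold in edgeR, DESeq2 or limma, and 1 of 6, Prkar2a, at an unadjusted p under 0.05. Among the catalytic subunits, Prkacb was at 114, 96.1 and 112 CPM in Control and at 87.5, 114 and 104 CPM in Ptch1-ablated samples. These values interleaved, with a log2 fold change of -0.08 ± 0.16 that turned positive under library totals alone and on TPM (0.09 to 0.13). Prkaca had -0.49 ± 0.25. Among the regulatory subunits, Prkar1a was at 443, 378 and 379 CPM in Control and at 477, 421 and 432 CPM in Ptch1-ablated samples. The groups overlapped, with a log2 fold change of 0.15 ± 0.13 (edgeR adjusted p = 0.581), the smallest standard error among the members that missed the threshold. Prkar1b, the other type I subunit, had 0.14 ± 0.21, and the type II subunits Prkar2a and Prkar2b had -0.71 ± 0.27 and -1.10 ± 0.79 (edgeR adjusted p = 0.146 and 0.492). Prkar2b had low counts, with a mean of 4.03 CPM in Control and 1.88 CPM in Ptch1-ablated samples. The adjusted p of the 6 subunits ranged from 0.146 to 0.858, which does not show that they were equal.

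Type I subunits made up nearly all regulatory transcripts in both groups. Their share of regulatory TPM was 94.1%, 95.5% and 95.7% in Control and 97.0%, 97.4% and 97.6% in Ptch1-ablated samples. The ranges did not overlap, though the means differed by little (95.1% ± 0.853 and 97.3% ± 0.322, SD, n = 3). Regulatory TPM per catalytic TPM was 4.14 ± 0.219 in Control and 5.21 ± 1.00 after ablation, and the ranges overlapped. Prkacb made up 67.9% ± 4.13 and 73.6% ± 1.65 of catalytic TPM.

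The PKI genes, whose peptides block free catalytic subunits, came closest to the threshold with Pkig. It was at 32.3, 36.7 and 25.8 CPM in Control and at 59.2, 43.8 and 56.2 CPM in Ptch1-ablated samples. The groups did not overlap, but with a log2 fold change of 0.75 ± 0.22 the gene just missed the threshold (edgeR adjusted p = 0.0568). It passed without Ptch1-ablated replicate 2 (adjusted p = 0.0484), in DESeq2 (0.0152) and in 4 other alternative analyses. Pkig held 77.9% ± 3.60 of PKI TPM in Control and 87.1% ± 3.43 after ablation. Pkia and Pkib had log2 fold changes of -0.24 ± 0.23 and 0.32 ± 1.05, the latter at about 1 CPM in both groups.

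Among the phosphodiesterases, the enzymes that degrade cyclic nucleotides, 1 of 14 fell and 1 rose, beside 3.80% of all genes lower and 4.68% higher. Pde4b, a cAMP-specific enzyme of the rolipram-sensitive PDE4 family, was at 142, 149 and 179.6 CPM in Control and at 84.2, 66.7 and 101 CPM in Ptch1-ablated samples. All Ptch1-ablated values lay under the lowest Control value, a 1.87-fold fall with a log2 fold change of -0.90 ± 0.18 (edgeR adjusted p = 0.00872). Pde3a, which degrades both cyclic nucleotides and is inhibited by cGMP, was at 92.6, 82.6 and 88.4 CPM in Control and at 159.98, 198 and 127 CPM in Ptch1-ablated samples. The Control values were tight and all lay below the Ptch1-ablated values, a 1.84-fold rise with a log2 fold change of 0.88 ± 0.18 (edgeR adjusted p = 0.00882). Without Control replicate 2 its adjusted p was 0.0503. Pde2a, the cGMP-stimulated enzyme and the dual-specificity member with the highest control level, was at 26.3, 40.6 and 46.7 CPM in Control and at 47.0, 53.3 and 43.3 CPM in Ptch1-ablated samples. Its groups overlapped, with a log2 fold change of 0.34 ± 0.24 (edgeR adjusted p = 0.484).

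The calcium- and calmodulin-stimulated PDE1 genes had low counts and wide errors. Pde1a, Pde1b and Pde1c had log2 fold changes of 1.01 ± 0.57, 1.45 ± 0.53 and 1.67 ± 0.54 (edgeR adjusted p = 0.363, 0.131 and 0.0869). None passed, and the groups of each did not overlap. Pde1c passed in DESeq2 (adjusted p = 0.0329), and Pde1b and Pde1c in limma on log2(TPM + 1). Summed PDE1 TPM was 4.47, 7.70 and 9.84 in Control and 19.4, 17.9 and 19.7 in Ptch1-ablated samples. The other 8 phosphodiesterases had log2 fold changes from -0.66 (Pde10a) to 1.46 (Pde7a), and Pde7a, Pde8a, Pde8b and Pde3b, all with mean CPM under 8, had standard errors of 0.79 to 0.96. As a share of phosphodiesterase TPM, Pde4b went from 40.3% ± 2.15 to 23.2% ± 6.30 and Pde3a from 8.25% ± 1.09 to 16.1% ± 2.86, so that the PDE4 family went from 69.4% ± 2.10 to 52.5% ± 3.74. The summed TPM of all 14 was 201 ± 22.0 and 218 ± 20.4, and the groups overlapped.

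Anchoring proteins, which place PKA beside its substrates, held the second-largest rise. Akap12, a membrane scaffold also called gravin that binds PKA and protein kinase C, was at 15.1, 13.5 and 17.3 CPM in Control and at 68.8, 90.4 and 73.8 CPM in Ptch1-ablated samples. The groups were far apart, a 5.06-fold rise with a log2 fold change of 2.34 ± 0.21 (edgeR adjusted p = 2.24e-05) that stayed between 2.22 and 2.44 with any 1 sample left out. Akap13, another anchoring scaffold, was at 229, 213 and 204 CPM in Control and at 227, 281 and 240.4 CPM in Ptch1-ablated samples. Its groups overlapped, with a log2 fold change of 0.21 ± 0.14 (edgeR adjusted p = 0.444).

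**Figure D3:**
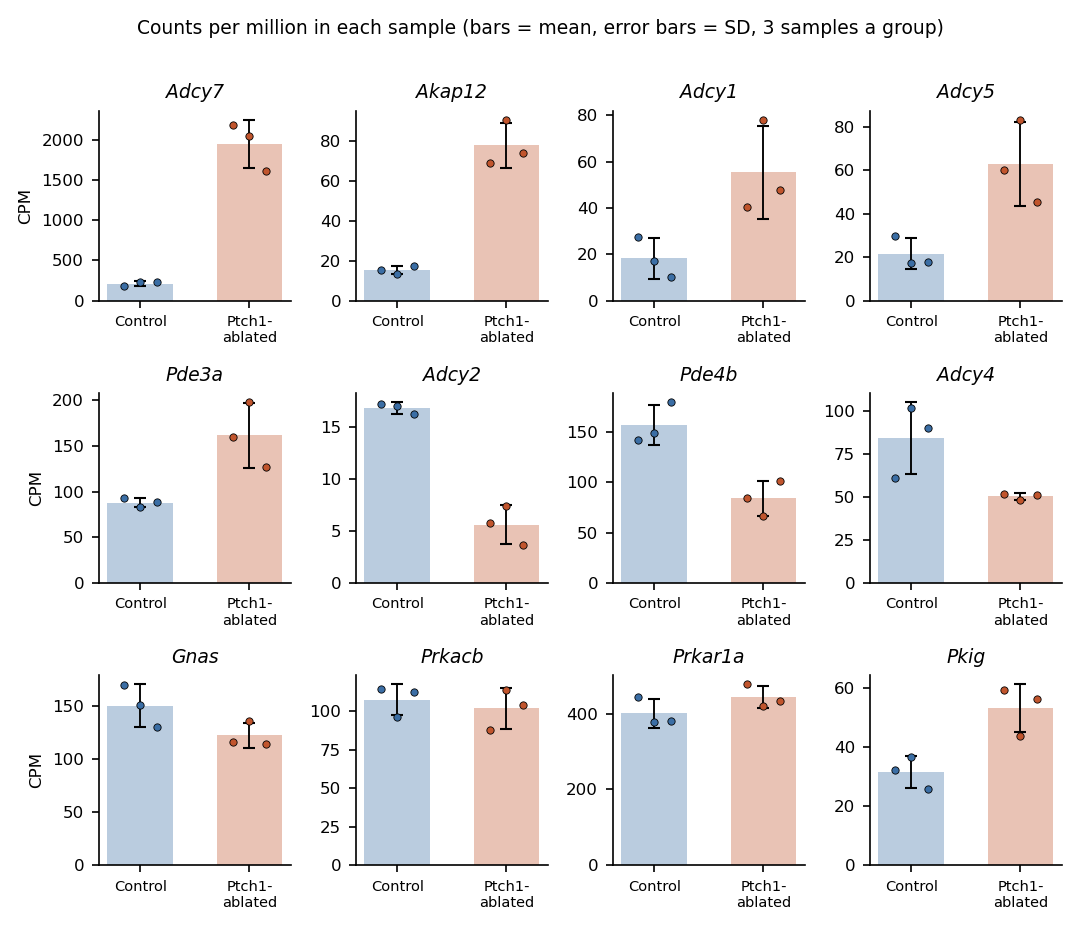
CPM in each sample for the 8 genes past an adjusted p of 0.05 and for Gnas, Prkacb, Prkar1a and Pkig, with bars at the group mean and error bars at 1 SD (3 samples a group). The points of the 2 groups do not overlap in the upper 8 panels, while those of Gnas, Prkacb and Prkar1a do, and those of Pkig are apart although its adjusted p was 0.0568.

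Downstream of cAMP, neither the CREB family factors nor the Epac proteins passed the threshold. Crem, whose products include a repressor of CREB sites, was at 30.9, 25.1 and 32.9 CPM in Control and at 17.2, 31.6 and 24.3 CPM in Ptch1-ablated samples. The groups overlapped, with a log2 fold change of -0.28 ± 0.27 (edgeR adjusted p = 0.63) that turned to 0.018 and 0.019 in limma on TPM. Creb1 had 0.46 ± 0.20 (adjusted p = 0.218) and was the only factor of the pair with an unadjusted p under 0.05. Rapgef3, which encodes Epac1, was at 122, 142 and 124 CPM in Control and at 183, 167 and 163 CPM in Ptch1-ablated samples. The groups did not overlap, yet the log2 fold change of 0.40 ± 0.14 did not pass (edgeR adjusted p = 0.12), though it did in DESeq2 (0.0369), under library totals alone (0.0229) and in limma on TPM. Rapgef4, which encodes Epac2, had 1.34 ± 0.98.

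The wider pathway was taken from lists of 91 other genes, of which 78 were in the table and 54 could be tested. Among these 2 rose and 5 fell, where 4.68% of all genes tested were higher and 3.80% lower past the same adjusted p. Their median log2 fold change was 0.20, beside 0.00 over all genes. The Gs-coupled and constitutively active receptors, which raise cAMP, gave 4 falls and no rise among 19 tested, beside the 3.80% of all genes that were lower. These lists were chosen with earlier results known, so nothing is read from their shares. Adcyap1r1, the receptor of the neuropeptide PACAP, was at 221, 186 and 195 CPM in Control and at 46.7, 47.3 and 41.3 CPM in Ptch1-ablated samples. Every Ptch1-ablated value was far below the Control values, a 4.45-fold fall with a log2 fold change of -2.15 ± 0.16 (edgeR adjusted p = 4.35e-06). Drd1, the dopamine D1 receptor, was at 60.02, 119 and 144 CPM in Control and at 18.2, 23.3 and 28.7 CPM in Ptch1-ablated samples. Control replicate 1 was the lowest of its group and still above all Ptch1-ablated samples, and the log2 fold change was -2.20 ± 0.30 (edgeR adjusted p = 0.000609). Vipr2, a receptor for VIP and PACAP, was at 24.8, 25.8 and 31.4 CPM in Control and at 7.08, 3.61 and 9.18 CPM in Ptch1-ablated samples, with no overlap and a log2 fold change of -2.04 ± 0.36 (edgeR adjusted p = 0.00342). The fourth was Calcrl, the shared receptor subunit for CGRP and adrenomedullin, named after its values were seen. Its log2 fold change was -0.71 ± 0.16 (edgeR adjusted p = 0.0137), and the adjusted p was 0.0701 without Control replicate 2 and 0.0591 without Ptch1-ablated replicate 1, 0.051 under library totals alone and 0.0941 or 0.103 in limma. Gpr161, the ciliary receptor that keeps PKA active against Hedgehog signaling, was likewise named after its values were seen. It was at 6.06, 4.16 and 3.37 CPM in Control and at 7.89, 8.41 and 12.1 CPM in Ptch1-ablated samples, with no overlap and a log2 fold change of 1.06 ± 0.43 that did not pass (edgeR adjusted p = 0.183).

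Receptors coupled to Gi, which lower cAMP, gave 2 rises and no fall among 8 tested, beside the 4.68% of all genes that were higher. Ptger3, the EP3 receptor of prostaglandin E, had 0, 9 and 0 counts in Control and 398, 368 and 254 counts in Ptch1-ablated samples. The receptor was near or at the floor in Control and present in every Ptch1-ablated sample (edgeR adjusted p = 0.00119), and because of the low Control counts the fitted log2 fold change of 6.54 ± 0.99 is not a firm size. Without Control replicate 2, which leaves only Control samples with 0 counts, the fit gave 11.4, which depends on the prior count and is no bound. S1pr1, a sphingosine 1-phosphate receptor, was at 21.5, 27.9 and 17.5 CPM in Control and at 57.0, 32.7 and 42.4 CPM in Ptch1-ablated samples. The groups did not overlap, with a log2 fold change of 0.98 ± 0.27 (edgeR adjusted p = 0.0434). It no longer passed without Control replicate 1 or 3 or Ptch1-ablated replicate 1 or 3, where the adjusted p was 0.0859, 0.123, 0.191 and 0.108, nor under upper quartile scaling (0.0528). S1pr1 is also abundant in vascular endothelium, of whose 8 markers 4 rose in the same samples. The part of such cells in the rise of S1pr1 was not tested. None of 9 other anchoring proteins, 6 other alpha subunit, cyclase, phosphodiesterase and cAMP exporter genes and 2 other effectors passed in edgeR, DESeq2 or limma, and 1 of them, Gnaz, had an unadjusted p under 0.05.

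Of 10 CREB partners and brakes, only Creb5 passed. Creb5, a CRE-binding factor, was at 31.1, 33.6 and 26.7 CPM in Control and at 10.1, 10.9 and 6.68 CPM in Ptch1-ablated samples. The groups were well apart, with a log2 fold change of -1.72 ± 0.28 (edgeR adjusted p = 0.00219). Genes that CREB is known to switch on were read as a separate list of 16, of which 11 could be tested. Here 7 rose and none fell, beside 4.68% of all genes higher and 3.80% lower. The median log2 fold change of the 11 was 0.61. This list too was chosen with earlier results known. Fosb was at 439, 473 and 556 CPM in Control and at 995, 1199 and 1128 CPM in Ptch1-ablated samples. Fosb encodes a partner in the AP-1 factor, and its Ptch1-ablated samples all lay above the Control samples, with a log2 fold change of 1.18 ± 0.13 (edgeR adjusted p = 0.000107). The orphan nuclear receptor gene Nr4a1 was at 347, 304 and 411 CPM in Control and at 728, 815 and 821 CPM in Ptch1-ablated samples, a log2 fold change of 1.15 ± 0.14 (edgeR adjusted p = 0.000183). Fos was at 2506, 2384 and 2885 CPM in Control and at 4697, 4547 and 4829 CPM in Ptch1-ablated samples, a log2 fold change of 0.86 ± 0.10 (edgeR adjusted p = 0.000172). All 3 are immediate early genes, which other stimuli and cell sorting are also known to induce. The other 4 that rose, Dusp1, Nr4a2, Btg2 and Junb, had log2 fold changes between 0.50 and 0.81, and the same limit applies to them. Without Control replicate 2, Ptch1-ablated replicate 1 or Ptch1-ablated replicate 3 the adjusted p of Junb was 0.141, 0.0768 or 0.0963. That of Nr4a2 was between 0.0629 and 0.132 without Control replicate 2 or 3 or any 1 of the Ptch1-ablated samples. Nr4a3, Per1, Rgs2 and Ppargc1a did not pass.

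**Figure D4:**
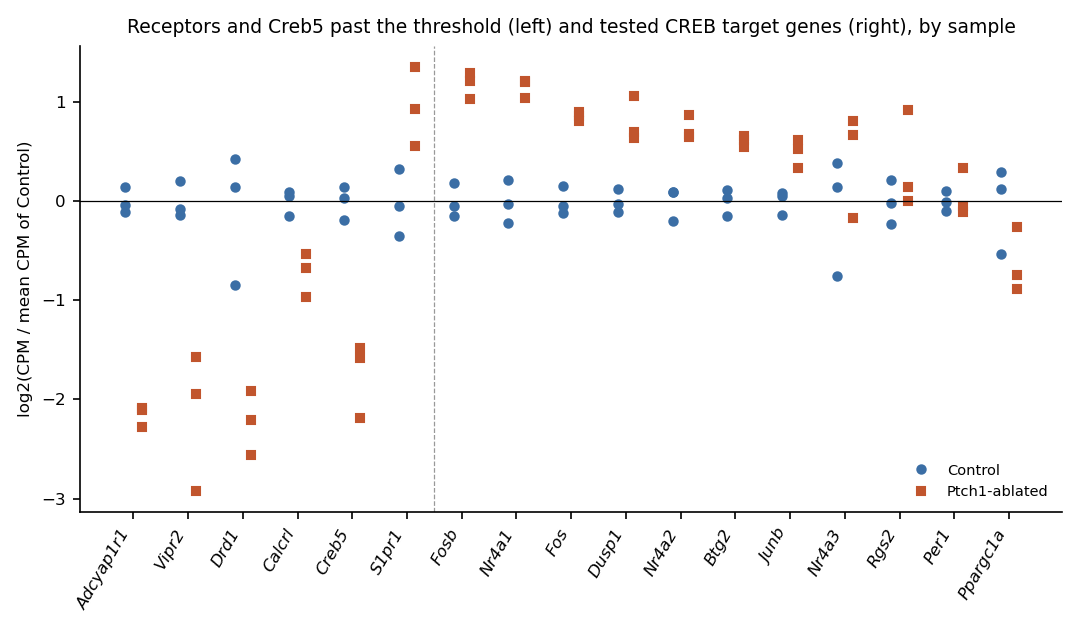
Log2 of CPM over the mean Control CPM in each sample (circles for Control, squares for Ptch1-ablated) for the receptors and Creb5 that passed an adjusted p of 0.05 (left of the dashed line) and for the 11 tested CREB target genes (right). Ptger3, at 0 counts in some Control samples, is not drawn. Adcyap1r1, Vipr2, Drd1, Calcrl and Creb5 lie below the line in all 3 Ptch1-ablated samples, and the 7 targets from Fosb to Junb lie above it in all 3.

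Of the 8 members past the threshold, Adcy5, Adcy7, Akap12 and Pde4b passed in every alternative fit run. Another 11 members had groups that did not overlap without passing: Adcy9, Creb1, Gnai3, Pde1a, Pde1b, Pde1c, Pkig, Prkaca, Prkar2a, Prkar2b and Rapgef3. Over all genes tested the groups of 27.4% did not overlap, whether they passed or not, so nothing is read from this list. The standard error was above 0.5 for 11 members, none of which passed. For 22 members the log2 fold change lay between -0.5 and 0.5. Counts of genes with an antisense neighbour can mix in reads from it where strand is not used in counting. In GENCODE vM21 21 of the 42 members had a gene on the other strand of their locus, and for 4 of them it was protein-coding.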

How the data were processed

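RNA-seq values of sorted corneal keratocytes from 6 samples, 3 Control and 3 Ptch1-ablated, were used. According to the study's methods and the submitters' processing notes, reads were aligned with Bowtie2 (2.2.5) and quantified with RSEM (1.2.12), and the notes name mm9 as genome build. The deposited table holds expected counts, TPM and FPKM per gene, all made by the authors; 18.6% of the expected counts were not whole, and they were rounded. The labels name an Illumina TruSeq kit and the study's methods ribosomal RNA depletion on a BGISEQ-500, and whether counting used strand is not given in the sources used here.

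The members and gene lists were chosen with earlier results of these data known. Genes passing filterByExpr (13888) were tested with edgeR (4.0.16) glmQLFit and glmQLFTest on TMM-scaled counts without covariates, two-sided, with Benjamini-Hochberg adjustment over all of them. A call needed an adjusted p no higher than 0.05 together with a fold of 2 or more, as in the study's methods; its results name the same fold with a p not said to be adjusted. CPM values use TMM-scaled library sizes. Standard errors are the absolute log2 fold change over the square root of F. Values in every sample are given for members past the adjusted p and for the member of each role with the highest control TPM; other genes are named where past it, at most 3 a list, unless the text says otherwise. Shares are percentages of summed TPM within a role, with no test. The procedure was run on simulated counts with known changes, whose spread followed the fitted trend alone. Spread particular to each gene was left out, so it is a check of the procedure only. Replicates of a group differed by more than sampling noise (chi-square per degree of freedom at least 35.4). Alternatives were DESeq2 (1.42.0), limma (3.58.1) on log2(TPM + 1) and log2(TPM + 0.1), other scalings, filters and thresholds, a replicate block, and leaving out each sample. Shares were also computed from FPKM in place of TPM, which cannot change them. Promoter windows came from RefSeq and overlapping loci from GENCODE vM21, both GRCm38, and no coordinate was taken from the deposited table. Protein sequences were not used here.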

Additional observations from a re-analysis of the deposited data

How the results depend on the processing

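Of the members' log2 fold changes under the alternatives, 555 kept their direction and side of the threshold, 16 passed that had not, 16 no longer passed and 27 changed sign, all of genes that missed the threshold. Prkacb went from -0.08 to 0.092 with library totals only and to 0.13 in both limma fits, Pde4a from -0.02 to 0.15, 0.17 and 0.17, Pde8a from -0.05 to 0.11, 0.55 (pseudocount 0.1) and 0.22, and Crem from -0.28 to 0.018 and 0.019 in the limma fits. With 1 sample left out the ranges crossed 0 for Adcy6 (-0.22 to 0.23), Prkacb (-0.16 to 0.021), Prkar1b (-0.048 to 0.34), Pkib (-0.27 to 0.63), Pde4a (-0.12 to 0.10), Pde8a (-0.56 to 0.32), Pde8b (-0.13 to 1.496) and Gnai2 (-0.058 to 0.31). The 5 members called became 8 in limma on log2(TPM + 1), 3 with an adjusted p no higher than 0.01 and 8 with a fold of 1.5 or more, and 3 to 6 with 1 sample left out. The 8 members past the adjusted p became 4 to 8 with 1 sample left out, lowest without Control replicate 2, and 11 in DESeq2, 10 with library totals only and 12 in limma on log2(TPM + 1). The 2 CREB target genes called became 4 in both limma fits and 6 with a fold of 1.5 or more. The cause of these shifts was not tested, except that fewer samples or other thresholds were used by construction. Same-numbered samples did not deviate together over all genes tested (r = -0.046, -0.049 and 0.039). With 3 samples a group this cannot exclude that the replicate numbers pair them. With the replicate block 7 members passed, all but Adcy4 (adjusted p = 0.0891) of the 8, 5 were called and Pde8a went to 0.35; S1pr1 and Nr4a2 also missed the threshold (0.0849 and 0.074), and genes called overall went from 763 to 663. Shares with FPKM matched those with TPM by construction, because the units differ only by a constant factor within a sample. They are therefore no check of the shares. Low counts limit Gnai1, Prkar2b, Pkib, Pde1a, Pde1b, Pde1c, Pde7a, Pde8a, Pde8b, Pde3b and Rapgef4.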
